A study of Mus musculus with 52 samples.

Results

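The open chromatin of anterior pituitary endothelial cells (ECs) with stabilized beta-catenin was compared with that of WT ECs by ATAC-seq, an assay in which a transposase cuts accessible DNA and the cuts pile up as peaks. WT mice carried Tie2-GFP, a transgene whose GFP marks ECs. The stabilized group (Bcat) carried Tie2-GFP, the Pdgfb-CreER driver of Cre activity in ECs and BcatEx3fl, an allele of the beta-catenin gene Ctnnb1 from which Cre removes the exon that marks the protein for breakdown, and had received 100 µg of 4-hydroxytamoxifen (4HT) at day 10 after birth. Whether the exon was removed in the sorted cells was not tested here. The Cre transgene and 4HT were present in Bcat mice only, so that their part in a difference cannot be told apart from that of beta-catenin. All mice were labeled male, each replicate pooled the anterior lobes of 20 to 30 mice aged 30 to 90 days, and about 50000 GFP-positive cells were sorted for each ATAC-seq library. Each group had 2 libraries. Peak entries needed more than 2 both in fold enrichment and in -log10 q, the mitochondrial chromosome was left out, and overlapping peaks of the 4 libraries were merged into 53921 regions. A region was gained when both Bcat libraries and neither WT library had a peak there, and lost in the reverse case. There were 2767 gained regions, which is 5.13% of the 53921, and 1872 lost regions, which is 3.47%. A further 28704 regions had a peak in all 4 libraries and are called persistent.

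Beta-catenin is the intracellular effector of canonical Wnt signaling. When it is not degraded it enters the nucleus and binds transcription factors of the TCF/LEF family, which recognize short DNA sites in promoters and enhancers, and target genes include the pathway's own inhibitors such as Axin2 and Nkd1. In the brain, Wnt signaling to ECs maintains the blood-brain barrier (BBB), a state with tight junctions and nutrient transporters, whereas ECs of the anterior pituitary are fenestrated and let hormones pass. ATAC-seq peaks away from promoters mark candidate regulatory elements, and the gene nearest to a peak is a convention and not evidence of regulation.

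The sequences of the strongest distal gained regions with TCF/LEF letters are shown because gained regions held those letters more often than the others did. TCF/LEF letters were ATCAAAG or TTCAAAG on either strand. Each run is a stretch of the plus strand of GRCm38 (mm10), centred on the match nearest to the summit, and capitals mark every match within it.

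Calml3 region, chr13:3749750-3749850: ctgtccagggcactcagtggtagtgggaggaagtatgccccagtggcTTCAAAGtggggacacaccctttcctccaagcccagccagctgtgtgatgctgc
Jag1 region, chr2:137204568-137204668: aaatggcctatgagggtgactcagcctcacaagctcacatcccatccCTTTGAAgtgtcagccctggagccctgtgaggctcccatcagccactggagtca
Lrmda region, chr14:22589713-22589813: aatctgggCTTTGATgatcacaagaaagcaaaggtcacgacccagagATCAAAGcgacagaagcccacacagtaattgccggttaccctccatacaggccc
Tnfrsf19 region, chr14:61012578-61012678: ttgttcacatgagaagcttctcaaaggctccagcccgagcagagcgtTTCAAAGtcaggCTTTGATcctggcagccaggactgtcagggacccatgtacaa
Naa30 region, chr14:49155705-49155805: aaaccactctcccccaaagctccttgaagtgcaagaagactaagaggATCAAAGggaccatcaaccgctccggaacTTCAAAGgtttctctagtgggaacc
Kif2a region, chr13:107042673-107042773: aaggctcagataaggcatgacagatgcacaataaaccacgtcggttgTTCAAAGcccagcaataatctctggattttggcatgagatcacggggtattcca

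Among these 6 regions, those named for Lrmda, Tnfrsf19 and Naa30 held 2 matches in the printed stretch and the other three held 1. For contrast, 4 of the strongest distal lost regions, taken whatever letters they held, are shown around their summits, and none of these has a TCF/LEF match. The Zfp521 region, of rank 2 among lost regions, lay in repeat-masked sequence and is not shown.

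Gm21738 region, chr14:19278158-19278258: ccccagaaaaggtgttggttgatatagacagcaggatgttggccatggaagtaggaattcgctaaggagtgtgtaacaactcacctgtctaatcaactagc
Tmtc2 region, chr10:105238422-105238522: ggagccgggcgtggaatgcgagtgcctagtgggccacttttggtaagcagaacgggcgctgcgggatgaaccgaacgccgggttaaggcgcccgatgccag
Agr2 region, chr12:35975793-35975893: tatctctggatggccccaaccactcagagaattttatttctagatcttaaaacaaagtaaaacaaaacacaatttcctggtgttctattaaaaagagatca
Dcn region, chr10:97507883-97507983: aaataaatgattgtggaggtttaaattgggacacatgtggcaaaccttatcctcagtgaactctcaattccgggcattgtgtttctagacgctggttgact

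The 4 libraries held between 36860 and 45040 merged peaks after the filter, with the fewest in WT replicate 1 and the most in WT replicate 2, and their read depth is unknown from the peak lists. WT replicate 2 alone had a peak in 5879 regions, whereas the other three libraries alone had 1483 to 2212. Each class therefore depends on which libraries set it. The count of gained regions ranged from 3382 to 6027 when 1 library was left out, with 6027 without WT replicate 2, 4979 without Bcat replicate 1 and 4250 without Bcat replicate 2. The count of lost regions was 7751 without WT replicate 1, 3978 without WT replicate 2 and 3395 without Bcat replicate 2. When each library was cut to its 20000 peaks of highest -log10 q, 763 regions were gained and 548 lost. Presence was fixed by the rule and was not tested, and with 2 libraries against 2 an exact two-sided permutation test cannot give a p below 0.333.

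**Figure D1:**
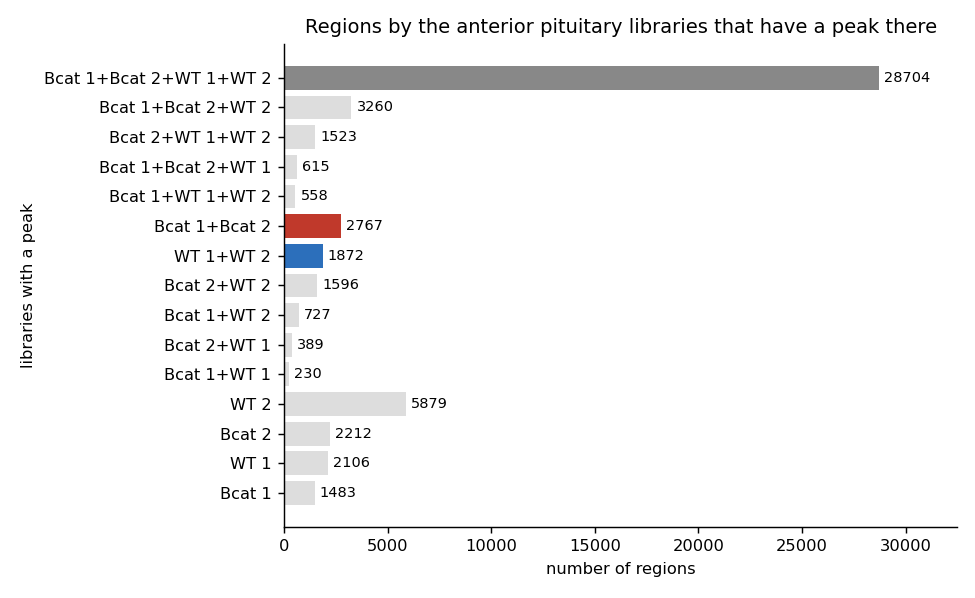
Number of regions (x axis) for each combination of anterior pituitary libraries that have a peak there (y axis); red marks the gained, blue the lost and dark gray the persistent regions. The 28704 persistent regions form the longest bar, and WT replicate 2 alone accounts for 5879 regions.

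In unadjusted fold enrichment, gained regions were moderate and lost regions lower. The fold enrichment, the signal at the summit divided by the background around it in that library, had a median of 4.63 in Bcat replicate 1 and 4.94 in Bcat replicate 2 at gained regions. At lost regions it was 3.88 in WT replicate 1 and 3.66 in WT replicate 2. At persistent regions the medians ran from 7.86 in WT replicate 1 to 10.5 in Bcat replicate 2. The libraries thus differed in scale, for which neither these medians nor the shares that follow were adjusted. A fold enrichment over 6 in both libraries of the genotype was reached by 15.4% of gained and 1.34% of lost regions. Entries between the caller's own threshold and the filter were few on the absent side. A WT entry that the filter removed stood at 54 gained regions (1.95%), with median fold enrichments of 2.62 and 2.34 in the WT replicates. Such a Bcat entry stood at 60 lost regions (3.2%). The lists hold no signal below the caller's threshold, so these counts do not show how many regions were close to it. The smallest fold enrichments inside the filter were 2.012 for gained and 2.001 for lost regions. When more than 4 in fold enrichment and more than 3 in -log10 q were required, 2710 regions were gained and 676 lost. With only the 20000 peaks of highest -log10 q per library, 763 were gained and 548 lost, so that the first of these changes lowered mainly the number of lost regions and the second lowered both.

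Both classes lay mostly away from promoters. A promoter summit, within 1000 bp of the start of a protein-coding transcript, was found for 247 gained regions (8.93%, 95% Wilson interval 7.92 to 10.1) and 211 lost regions (11.3%, 9.92 to 12.8), against 44.1% of persistent regions (43.5 to 44.7). Intervals of this kind cover counting error over regions only. Which of the 2 classes had the larger promoter share depended on the threshold: it was 9.67% of gained and 9.6% of lost regions at a fold enrichment over 3, 10.5% and 9.76% at over 4 with a -log10 q over 3, 20.2% and 16.2% with the 20000 peaks of highest -log10 q per library, and 11.9% and 10.2% without WT replicate 2. Of gained regions 42.8% lay in introns and 45.2% between genes, and of lost regions 36.2% and 48.8%. The median distance to the nearest start was 17450 bp for gained, 21240 bp for lost and 2940 bp for persistent regions. The median width was 391 bp for gained, 376 bp for lost and 803 bp for persistent regions.

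**Figure D2:**
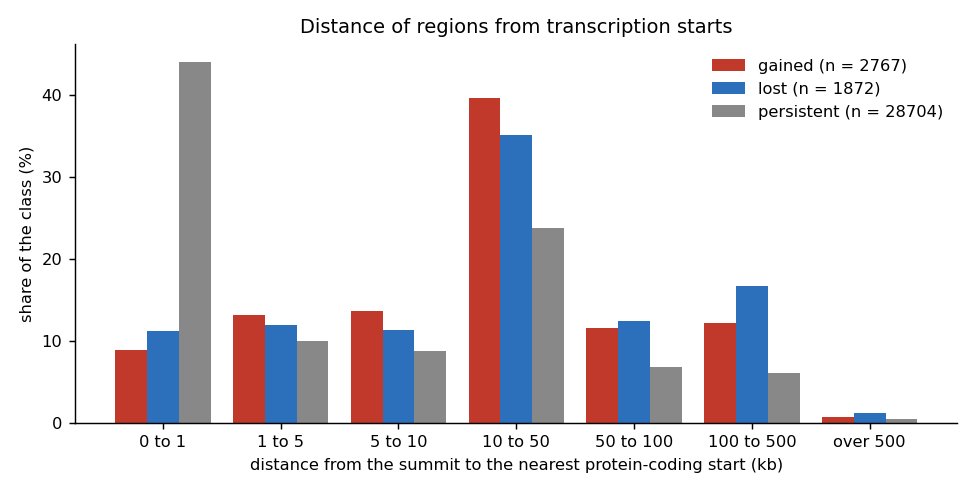
Share of each class (y axis, %) by the distance from the summit to the nearest protein-coding transcription start (x axis, kb) for gained (red), lost (blue) and persistent (gray) regions. Persistent regions pile up within 1 kb of a start (44.1%), whereas the commonest distance of gained and lost regions is 10 to 50 kb.

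TCF/LEF letters were far more frequent at gained than at lost or persistent regions. In windows reaching 100 bp to either side of the summit of distal regions, the letters were present in 567 of 2520 gained regions (22.5%, Wilson interval 20.9 to 24.2), 68 of 1661 lost regions (4.09%, 3.24 to 5.16) and 1019 of 16049 persistent regions (6.35%, 5.98 to 6.74). The share was 7.91% over all distal regions and 9.23% over a grid of genome windows of the same length. The same letters read backwards without complement (GAAACTA or GAAACTT), which keep the base composition, were found in 5.71%, 4.28% and 4.40% of the 3 classes. At promoters the letters stood in 34 of 247 gained regions (13.8%), 3 of 211 lost (1.42%) and 2.24% of persistent regions. Distal gained regions had a lower median GC content (49.8%) than lost (51.7%) and persistent regions (52.7%). Shares were therefore also taken within 5 steps of GC content, and the gained share was the highest of the 3 classes in each. In windows with 45 to 50% GC it was 26.1% against 7.19% for lost and 8.54% for persistent regions, and at 55% GC or more it was 15.7% against 0.396% and 3.47%. More than 1 match was present in 4.05% of gained, 0.0602% of lost and 0.28% of persistent distal regions.

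A scan of all 8192 words of 7 letters, each taken with its reverse complement, gave the same letters without choosing them. The words with the largest excess of distal gained over persistent regions were TTCAAAG, in 13.6% against 3.73%, and ATCAAAG, in 10.9% against 2.78%, and the words next in order overlapped these. These are descriptions of letters, and a match is neither a bound site nor a cause.

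**Figure D3:**
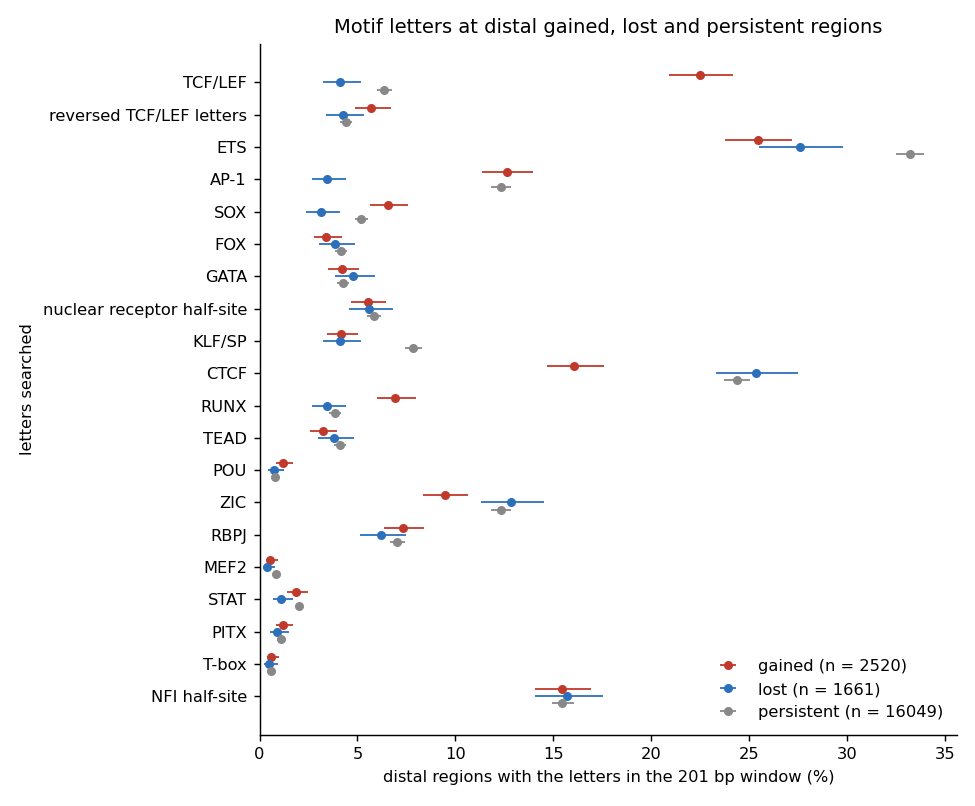
Share of distal regions (x axis, %) whose window of 100 bp to either side of the summit holds each set of letters on either strand (y axis) in gained (red), lost (blue) and persistent (gray) regions; bars are 95% Wilson intervals. TCF/LEF letters set gained regions apart (22.5% against 4.09% and 6.35%), and AP-1 letters are rare in lost regions (3.43%).

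The TCF/LEF share grew with the strength of the gained region. In 4 groups of gained distal regions of rising fold enrichment it was 17.5%, 18.5%, 19.6% and 35.3%, whereas in lost regions it was 5.05%, 4.34%, 3.54% and 3.45%. Matches were spread over the window rather than held at its centre: 27.6% of the 678 matches in gained regions lay within 25 bp of the summit. Regions called in a single library showed the same order by genotype, with 15% for Bcat replicate 1 alone and 11.4% for Bcat replicate 2 alone against 5.49% and 5.43% for the WT replicates alone. The share over all gained regions was 21.7% and stayed between 14.7% and 19.7% when 1 library was left out, with the lowest value without WT replicate 2, while that of lost regions stayed between 3.83% and 4.94%.

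**Figure D4:**
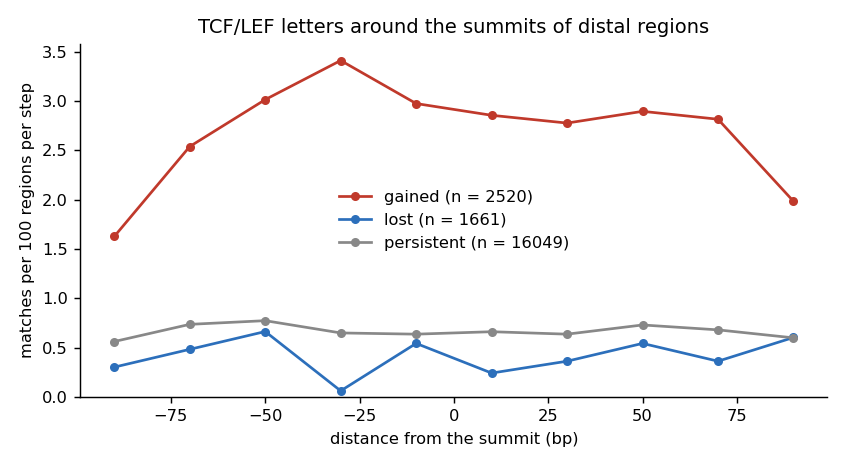
TCF/LEF matches per 100 distal regions in steps of 20 bp (y axis) by distance from the summit (x axis, bp) for gained (red), lost (blue) and persistent (gray) regions. The gained curve lies above the other curves over the whole window and is lowest at its edges.

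Other letters differed between the classes by smaller margins. ETS letters (CAGGAAG or CCGGAAG), typical of endothelial enhancers, were present in 25.4% of gained, 27.6% of lost and 33.2% of persistent distal regions. RUNX letters (TGTGGTT) were present in 6.91%, 3.43% and 3.84%, and SOX letters (AACAATG) in 6.55%, 3.13% and 5.20%. CTCF letters (AGGGGGC or AGAGGGC or AGGTGGC or AGATGGC), of the factor that anchors chromatin loops, were present in 16.1% of gained regions against 25.4% of lost and 24.4% of persistent regions. AP-1 letters (TGAGTCA) were present in 12.6% of gained, 3.43% of lost and 12.3% of persistent regions. Over all distal regions the shares were 28.7% for ETS, 4.29% for RUNX, 4.69% for SOX, 24.1% for CTCF and 13.9% for AP-1 letters, each searched on both strands. The AP-1 share also set the WT libraries apart from each other: it was 1.62% in distal regions of WT replicate 1 alone and 21.4% in those of WT replicate 2 alone, and a lost region needed a peak in both, so the part of this library difference in the low AP-1 share of lost regions was not tested. The word with the largest excess in lost over persistent regions was CTGTCAG, in 11.9% against 7.28%.

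Lost regions held more sequence that occurs in several copies. A window was called multicopy when at least 50% of its words of 32 bases occur more than once on chromosomes 1 to 19, X and Y. This held for 341 lost regions (18.2%, Wilson interval 16.5 to 20.0), 78 gained regions (2.82%, 2.27 to 3.50) and 2.95% of persistent regions. Chromosome Y carried 67 lost and 5 gained regions of its 224 regions, and 61 of the 67 were multicopy. On this chromosome 34 and 33 regions had a peak in the Bcat and 132 and 180 in the WT libraries, all labelled male, and outside multicopy sequence 11 and 12 against 20 and 24. The cause of this difference was not tested. Short reads cannot be placed with certainty in such sequence. Copies outside chromosomes 1 to 19, X and Y were not counted. Among the lost regions printed above, repeated words made up 10% of the Gm21738 window and 34.7% of the Tmtc2 window, and none in those of Agr2 and Dcn. Whether uncounted copies bear on these regions was not tested. Without chromosomes X and Y and multicopy regions, an alternative chosen after seeing the data, 2657 gained and 1493 lost regions were left, with TCF/LEF shares of 21.8% and 4.02%.

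Part of the gained regions were open in ECs of the cerebellum, which have a BBB. A peak in both WT cerebellum libraries overlapped 563 gained regions (20.3%, Wilson interval 18.9 to 21.9), 250 lost regions (13.4%, 11.89 to 14.97) and 56.7% of persistent regions. The lost share was 5.09% without chromosomes X and Y and multicopy regions and 5.88% without WT replicate 1, and the gained share was 20.7% and 19.9% in these cases. Without Bcat replicate 1 the order turned, with 13.3% of gained and 14.9% of lost regions. With only the 20000 peaks of highest -log10 q in each library the shares were 51.5% of gained and 21.5% of lost regions. Under the main filter, the shares at distal regions alone were 20.5% of gained, 14.5% of lost and 36.9% of persistent regions. In the posterior lobe, WT ECs had a peak in both libraries at 19 gained regions (0.687%), whereas Bcat ECs had one at 992 (35.9%). A peak in either library or both stood at 49 gained regions (1.77%) in WT and at 2084 (75.3%) in Bcat posterior ECs. The demand for both Bcat libraries therefore lowers the overlap that follows. Of the gained regions 948 were also gained in the posterior lobe by the same rule, which is 34.3% of the anterior and 12.7% of the 7437 posterior gained regions. None of the anterior gained regions was lost in the posterior lobe, and 43 anterior lost regions (2.297%) were gained there. Of the lost regions 108 were also lost there, 5.77% of the anterior and 20.2% of the 539 posterior lost regions. At 528 gained regions (19.1%) and 1105 lost regions (59.0%) there was no peak in any of the 8 cerebellar and posterior libraries.

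The TCF/LEF share followed the same split. It was 39.3% at gained distal regions with a peak in both WT cerebellum libraries and 16.1% at those with a peak in neither. It was 37.5% at gained distal regions that were also gained in the posterior lobe and 14.6% at the others. These others include regions with a peak in a single Bcat posterior library. At the 563 gained regions with a WT cerebellum peak, the fold enrichment in Bcat anterior ECs was lower than in WT cerebellum ECs, with a median log2 ratio of -0.66 after scaling on the 13618 regions with a peak in every library of these tissues, and both Bcat values were below both cerebellum values at 69.63% of them and above both at 7.11%. For the 2657 persistent regions with a WT cerebellum peak that were not used for scaling, that median was 0.04. Both Bcat values were below at 29.5% of them and above at 35.6%. The class rule bears on this contrast. Gained regions had to lack a peak in both WT anterior libraries, whereas persistent regions had to have a peak in every anterior library. Over all regions of each class, the median fold enrichments in the Bcat replicates were 4.63 and 4.94 at gained and 9.35 and 10.5 at persistent regions. How much of the contrast the rule set was not tested.

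The gained region with the highest fold enrichment in its lower replicate was intergenic, 54222 bp from the start of Calml3, a calmodulin-like gene, with fold enrichments of 15.4 and 16.2 in the Bcat replicates. WT cerebellum ECs had a peak there of 7.46 and 8.14. The next lay at -87952 bp from the start of Jag1, a ligand of Notch receptors, where negative distances are upstream, with 17.9 and 15.3, and it was as strong in WT cerebellum ECs (15.7 and 16.7). The intronic region of Tnfrsf19, a TNF-receptor family gene and Wnt target, reached 14.9 and 13.8, with 3 TCF/LEF matches and 14.2 and 14.7 in WT cerebellum ECs. The remaining regions of the leading 10 lay near Ifi204 and Gm8113 (both promoters), Lrmda, Btg1, Naa30, Kif2a and Nipal2, with fold enrichments from 13.02 to 15.74. No peak was called in WT cerebellum ECs at the regions of Ifi204, Gm8113, Kif2a and Nipal2, and 6 of the 10 held TCF/LEF letters.

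Some genes were nearest to several gained regions. Of 2038 protein-coding genes that were nearest to a gained region, 295 were nearest to 2 and 167 to 3 or more, and of 1494 nearest to a lost region 192 and 66, with no adjustment for gene length or number of peaks. Calml3 and Tpd52, a vesicle-trafficking gene, had 8 each, and Nr3c2, the mineralocorticoid receptor, had 7, of which 5 held TCF/LEF letters. Axin2, the feedback inhibitor of Wnt signaling, had 6, as did Ablim1, Bach2, Basp1, Hnrnpa3, Jarid2 and Tcf4. The 8 regions of Calml3 spread over distances of 1118 to 77585 bp, 4 of them with TCF/LEF letters and 4 with a WT cerebellum peak. Calml3 RNA itself was at 0 TPM in all 4 libraries, where TPM is a transcript level scaled to the same total in every library.

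Among lost regions, the strongest lay 140722 bp from Gm21738, with fold enrichments of 10.3 and 10.8 in the WT replicates. That of Agr2, a disulfide isomerase of secretory cells, reached 11.4 and 8.49, and that of Dcn, the matrix proteoglycan decorin, 11.4 and 8.19 in an intron. Zfp521, Tmtc2, Barhl2, Smim15, Arl4c, Prl and Zscan4e completed the leading 10, with 7.46 to 10.9. The Prl region, at -140878 bp from the gene of the hormone prolactin, had 9.18 and 7.46. The 5 genes with the most lost regions were Gm31371 (11), Gm10139 (10), Gm20830 (10, on chromosome Y), Atg7 (8) and 4930467E23Rik (6), and of these regions 10, 10, 7, 7 and 6 were multicopy. Of 1494 genes with a lost region, 353 also had a gained one, which is 23.6% of them and 17.3% of the genes with a gained region.

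Genes of the BBB and of Wnt feedback often had gained regions, and so did pan-endothelial genes. The shares were 50% of barrier transporter, 62.5% of tight junction and barrier, 50% of Wnt and 53.3% of pan-endothelial genes. Over all 21951 protein-coding genes, expressed in these cells or not, 9.28% were nearest to a gained and 6.81% to a lost region. Long genes and genes with many peaks have more chances to be nearest, which these counts do not adjust for. Of 22 barrier transporter genes 11 had a gained and 1 a lost region, of 16 tight junction and barrier genes 10 and 1, and of 28 Wnt feedback and target genes 14 and 3. Of 15 pan-endothelial genes 8 had a gained and 2 a lost region, of 20 barrier-linked transcription factor genes 9 and 7, and of 18 in the list named for the fenestral diaphragm and caveolae 7 and 5. In that list, Plvap, Cav1, Cav2, Cavin1 and Cavin2 had no gained region, and Cavin1 and Cavin2 had 1 lost region each. For arterial and Notch genes the counts were 6 and 5 of 15, for venous and adhesion genes 4 and 2 of 12, for matrix genes 7 and 4 of 16, and for BMP and TGF-beta genes 4 and 4 of 16.

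Examples show the sizes involved. Near transporter genes, a gained region in an intron of Slc35f2, a putative nucleoside transporter, had fold enrichments of 10.9 and 11.8, one in Abcc4, an efflux pump, 10.3 and 10.3, and one at a promoter of Slc7a1, a cationic amino acid transporter, 8.70 and 11.4 with 2 TCF/LEF matches. Among tight junction genes, an intronic region of Tjp1, the scaffold ZO-1, had 10.9 and 11.2, one near Ocln, which codes for occludin, 7.56 and 7.28, and one at a promoter of Cgnl1, the junctional protein paracingulin, 9.21 and 7.08 with 3 TCF/LEF matches. Among Wnt genes, a region near Axin2 had 13.02 and 13.74, and one near Lef1, itself a TCF/LEF factor, 11.8 and 12.0. Pan-endothelial genes with gained regions kept their promoter peaks in every library: Fli1, an ETS factor, had a new region with 11.5 and 10.6, and Tek, an angiopoietin receptor, one with 7.93 and 9.36. The 22 barrier transporter genes of the list had 1 lost region, at Slc16a1, a lactate transporter, with 4.15 and 3.95 in the WT replicates.

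Immune marker genes also had gained regions. Of 10 markers of leukocytes (Ptprc, Csf1r, Cx3cr1, C1qa, C1qb, Itgam, Spi1, Cd68, Cd3e and Cd79a), 5 had 8 gained regions among them and 1 had a lost region, where 9.28% of all protein-coding genes had a gained and 6.81% a lost region. Promoter peaks stood at 4 of these 10 genes in each Bcat library and at 1 in each WT library, whereas over all 21951 protein-coding genes they stood at 11695 and 11754 in the Bcat and 11518 and 11973 in the WT libraries. The gained promoters of C1qa and C1qb, complement genes of macrophages, had fold enrichments of 3.66 and 4.94, and 3.17 and 5.20. In RNA-seq libraries of the same cell type, the summed level of the 10 markers was 138 and 221 TPM in the Bcat replicates and 9.82 and 3.76 TPM in the WT replicates. All 10 had a positive log2 fold change (median 6.70, a fitted value and no bound), and 1, C1qb, passed the test. In 7 of them both Bcat values were above both WT values. Over all 17900 genes tested, 52.9% were positive, 25.8% had both Bcat values above and 0.441% were called higher. Spi1, the gene of the myeloid ETS factor PU.1, was at 4.17 and 16.8 TPM in Bcat and at 0 TPM in both WT libraries. The letters GAGGAAGT, of the PU.1 type and searched after the words had been seen, were present in 7.34% of gained, 4.15% of lost and 5.18% of persistent distal regions. They stood in 4.23% of all regions. Of the 185 gained regions with them 12.4% had a WT cerebellum peak, against 35.8% of the 567 with TCF/LEF letters and 20.5% of all 2520 distal gained regions. How much immune cells contributed to the gained regions was not tested, and in bulk samples more cells of a type and more accessible DNA or RNA per cell cannot be told apart.

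The markers of the other cell types were closer between the genotypes in their sums than the immune markers were, but single genes among them did not overlap between the genotypes. The summed level of 10 endothelial markers was 3440 and 2910 TPM in Bcat and 3120 and 4770 TPM in WT libraries, and all 10 had promoter peaks in all 4 ATAC-seq libraries. Of these 10, Egfl7 had both Bcat values below both WT values, at 296 and 220 TPM against 521 and 608 TPM (adjusted p = 0.696), and Pecam1 and Tie1 had both above, and none of the 10 passed the test. Endocrine markers summed to 4690 and 4100 TPM against 6900 and 4430 TPM, fibroblast markers to 46.8 and 29.2 TPM against 30.3 and 47.5 TPM, and mural markers to 262 and 180 TPM against 191 and 225 TPM, sums to which Rgs5 and Kcnj8 gave most. Of the 10 mural genes 7 had a positive log2 fold change (median 1.27) and 1 rose, Rgs5, at 147 and 104 TPM against 41.2 and 45.2 TPM, while Kcnj8 was at 77.8 and 46.1 TPM against 127 and 148 TPM (adjusted p = 0.577). Pdgfrb was at 2.56 and 2.16 TPM against 0.347 and 0.764 TPM (adjusted p = 0.0807), and Vtn, Notch3, Myh11 and Tagln also had both Bcat values above both WT values, as did 25.8% of all genes tested, while 14.6% had both below. All 6 fibroblast markers had a positive log2 fold change (median 1.29), with both Bcat values above both WT values in Col1a1, and none passed the test, and the part of mural and fibroblast cells in the gained regions was not tested. Of 15 endocrine markers tested 12 had a negative log2 fold change (median -0.24) and none passed the test, with Cga at 377 and 346 TPM against 780 and 507 TPM, and Fshb, Nr5a1, Pou1f1 and Prl also with both Bcat values below both WT values, while Ghrhr and Tbx19 had both above. None of 6 erythrocyte markers had a positive log2 fold change (median -0.63), and none passed the test. Of them 1, Hba-a1, had both Bcat values below both WT values, and the part of these cells in the lost regions was not tested. Pituicyte and folliculostellate markers summed to 14.2 and 9.44 TPM against 15 and 12.2 TPM, with S100b, Sox9 and Vcan below and Sox2 above in both Bcat libraries, none past the test. Erythrocyte markers summed to 1420 and 680 TPM against 2210 and 1350 TPM.

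RNA-seq of the sorted GFP-positive anterior pituitary cells, a readout the peak rule did not use, was then set beside the regions. One Bcat library, replicate 2, is anterior pituitary by its title and posterior by another label, and was taken as anterior. Of 17900 genes tested with edgeR's quasi-likelihood test, 79 were called higher in Bcat GFP-positive cells (0.441%) and 3 lower (0.0168%). A call required a change of at least 2 fold and an adjusted p (Benjamini-Hochberg) under 0.05. Among the 14576 protein-coding genes tested the shares were 0.535% higher and 0.0137% lower. The counts depended on the fit: 52 were higher and 30 lower with only the 4 anterior libraries, 414 and 80 with DESeq2, 347 and 96 without the filter on low counts, 216 and 39 without Bcat replicate 1, 167 and 33 without Bcat replicate 2, 104 and 9 without WT replicate 1, and 91 and 5 without WT replicate 2. Of 1771 tested genes with a gained region, 43 rose (2.43%) and none fell, and of 11933 genes with neither class 32 rose (0.268%). At an unadjusted p under 0.05, 281 genes with a gained region had a higher (15.9%) and 29 a lower level (1.64%), beside 5.87% and 1.66% of the protein-coding genes tested. None of 1202 genes with a lost region fell at the adjusted threshold and 7 rose; at an unadjusted p under 0.05, 23 of them were lower (1.91%) and 68 higher (5.66%), which is near the shares over protein-coding genes, and with DESeq2 4 fell. The median log2 fold change was 0.27 for genes with a gained region, 0.00 for those with a lost one and 0.06 over all protein-coding genes tested.

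The more gained regions a gene had, the more often its RNA was higher. Of genes with 1, 2 and 3 or more gained regions, 1.78%, 3.02% and 6.96% rose, with median log2 fold changes of 0.21, 0.35 and 0.48. Of 208 genes with a gained region at their promoter 10 rose (4.81%), and their median was 1.10, or 1.07 when genes at 0 counts in one group were set to the bound that a floor of 3 counts gives. A gained region with TCF/LEF letters was nearest to 474 genes, of which 17 rose (3.59%, median log2 fold change 0.23), against 26 of 1297 genes with gained regions that all lacked the letters (2.005%, median 0.28), a difference that was not tested. A gained region with a WT cerebellum peak was nearest to 436 genes, of which 25 rose (5.73%, median 0.32). Read from the genes, 54.4% of the 79 genes called higher had a gained region, beside 12.15% of the protein-coding genes tested. The number of genes with a gained region that rose was 109 without Bcat RNA replicate 1 and 74 without Bcat RNA replicate 2, and 40 of the 43 were among the 74. It was 52 without WT RNA replicate 1 and 49 without WT RNA replicate 2, with 33 and 31 of the 43 among them. With only the 4 anterior libraries in the fit it was 24, of which 17 were among the 43, and with DESeq2 it was 147, with all 43 among them.

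**Figure D5:**
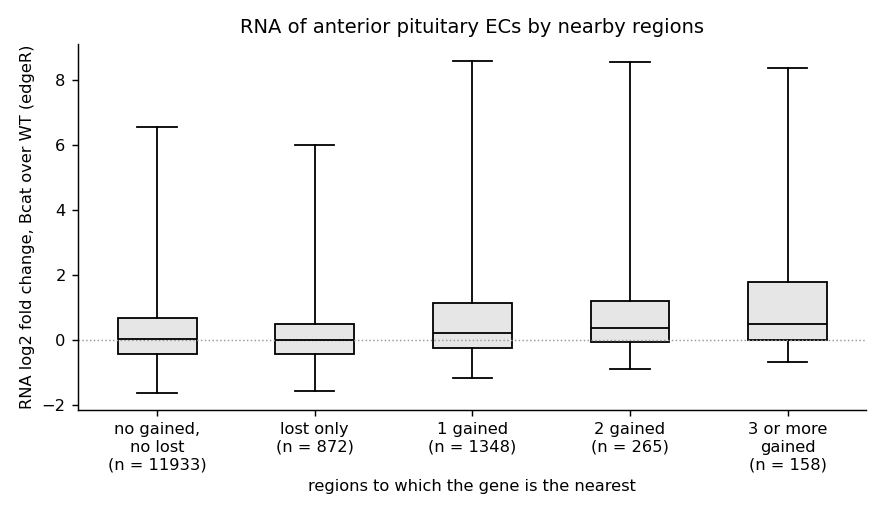
RNA log2 fold change of Bcat over WT anterior pituitary ECs (y axis, edgeR) for protein-coding genes grouped by the regions to which they are nearest (x axis); boxes show quartiles and medians and whiskers the 5th to 95th percentile. Medians rise from 0.21 for 1 to 0.48 for 3 or more gained regions; the long upper whiskers hold genes at or near 0 counts in WT libraries, whose fitted fold changes are not bounds.

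The genes with a region nearby and the largest rises were at or near 0 in WT libraries. Myof, which codes for the membrane-repair protein myoferlin, was at 14.3 and 5.51 TPM in Bcat and at 0 TPM in both WT replicates, so that it was at least 1170-fold higher against a floor of 3 counts over the group (adjusted p = 1.25e-05). It had 1 gained and 1 lost region. Tnfrsf19 was at 3.48 and 12.9 TPM against 0 TPM in both WT replicates, at least 853-fold higher (adjusted p = 0.000106), with 4 gained regions. Cd36, a fatty acid translocase of capillary ECs and macrophages, was at 12.7 and 10.0 TPM against 0 TPM, at least 411-fold higher (adjusted p = 0.00238), with 1 gained region.

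The remaining genes among the largest 10 were Rgs1, Il1b, Laptm5, Nckap1l, Ly86, C1qb and Ptger4. Of these, C1qb is in the list of 10 immune markers above. That list is short, and the genes outside it were not assigned to a cell type here, so absence from it does not make a gene endothelial. The other members of that list had positive log2 fold changes but did not pass the test. The part of immune cells in these rises was not tested. Il1b, the gene of the cytokine interleukin-1 beta, was at 104 and 155 TPM in Bcat and at 0 and 0.0239 TPM in WT libraries (adjusted p = 2.67e-05), with 1 gained and 1 lost region. Rgs1 was at 50.5 and 26.8 TPM against 0 TPM in both WT replicates and had 2 gained regions. Ptger4, a prostaglandin receptor gene, was at 3.15 and 5.29 TPM against 0 TPM in both WT replicates.

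The smallest rises among called genes with a region were of 2.87 to 4.15 fold. Slc2a1, the glucose transporter of the BBB, was at 34.7 and 76.5 TPM in Bcat and 10.8 and 16.7 TPM in WT libraries (log2 fold change 1.88 ± 0.33 SE, adjusted p = 0.0285), with 4 gained regions. Gpcpd1, a choline-metabolism gene, was at 34.6 and 41 TPM against 23.3 and 6.24 TPM (1.52 ± 0.29, adjusted p = 0.0454), with 3 gained regions. Fam13c had 4 gained regions, Kitl, the gene of stem cell factor, 2, and Reck, a partner of the Wnt7 coreceptor complex, 1.

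Several genes with strong gained or lost regions did not pass the RNA test, with differences from small to large. Jag1, with 4 gained regions, was at 7.81 and 10.7 TPM in Bcat and 7.82 and 10.6 TPM in WT libraries (log2 fold change 0.70 ± 0.38 SE, adjusted p = 0.698). The TPM values of Jag1 were nearly equal, while its counts scaled to library size (CPM) were 73.3 and 70.2 against 28.5 and 59.6, and the fold change was fitted on counts, which are not scaled by transcript length, so the size of the difference depends on the measure. In none of the 46 called genes with a gained or lost region did the mean TPM differ in the opposite direction to the fold change. Tjp1 was at 130 and 165 TPM against 86.3 and 139 TPM (log2 fold change 0.34 ± 0.25 SE, adjusted p = 0.781). Axin2, with 6 gained regions, was at 8.97 and 29.6 TPM against 3.10 and 0.0474 TPM, groups that did not overlap (log2 fold change 3.12 ± 1.02 SE, adjusted p = 0.404). Aqp1, a water channel gene with 2 gained regions, was at 47.4 and 71.1 TPM against 0.181 and 1.11 TPM, again without overlap (log2 fold change 7.06 ± 1.44 SE, adjusted p = 0.0621). Prl, with a strong lost region upstream, was at 502 and 746 TPM against 1940 and 816 TPM, both Bcat values below both WT values (log2 fold change -1.45 ± 0.72 SE, adjusted p = 0.698). The other endocrine markers given above were mostly lower with it (12 of 15 negative, Prl included), and the part of endocrine cells in the Prl values was not tested.

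Over all genes tested 0.441% rose, with a median log2 fold change of 0.06, and the counts by list stand beside that share. The lists were chosen with earlier results of these data known, so these counts describe the lists and are no independent test of them. Of the lists, 7 of 22 barrier transporter genes tested rose and none fell, with a median log2 fold change of 1.21, and 4 of the 7 had a gained region. Of 28 Wnt feedback and target genes 6 rose, 4 of them with a gained region, and the median was 1.55. Of 16 matrix genes 3 rose, and of 12 venous and adhesion genes 2 (Vcam1 and Vwf, both with a gained region). In the list of 18 fenestral and caveolar genes 2 rose, Car4 and Cd36, both with a gained region. Plvap, Cav1, Cav2, Cavin1 and Cavin2 of that list did not pass the test (log2 fold changes 0.07, 1.46, -0.14, -0.10 and -0.26). In the list of 15 tight junction and barrier genes 1 rose, Spock2, a gene also in the matrix list, with 2 gained regions. Cldn5, Ocln and Lsr did not pass (1.82, 1.77 and 4.95). Of 15 arterial genes 2 rose (Gja5 and Bmx) and of 20 transcription factor genes 1 (Foxq1), none of them with a gained region. None of 15 pan-endothelial and of 16 BMP and TGF-beta genes passed the test. The levels of 4 genes of these lists with gained regions were as follows. Spock2 was at 26.5 and 71.1 TPM against 1.24 and 0.623 TPM, Col18a1 at 8.86 and 18.4 TPM against 0.0523 and 0.0126 TPM, Vcam1 at 4.83 and 14.7 TPM against 0 and 0.00657 TPM, and Vwf at 2.08 and 5.70 TPM against 0.296 and 0.137 TPM.

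Persistent regions had a peak in every library by the rule, which had already placed regions with a peak in 1 genotype only among the gained and lost, so small differences among them are in part set by the rule. With limma on log2 fold enrichment centred on each library's median, 22 of 28704 were higher in Bcat (0.0766%) and 5 lower (0.0174%) at an adjusted p under 0.05, and 1125 and 1078 at an unadjusted p under 0.05. Of the 22, 13 were multicopy, and 8 of those lay in the zinc finger gene cluster at chr2:175337776-176928210. Among unique sequence, a region in an intron of Lmntd1 was at 21.5 and 19.1 in Bcat and 5.46 and 4.39 in WT libraries, with a TCF/LEF match, and one near Spata3 at 19.9 and 19.9 against 5.68 and 7.46, with 3 matches. Persistent distal regions with TCF/LEF letters had a median log2 difference of 0.06 and those without -0.02, and 12.6% of the former against 4.58% of the latter were higher at an unadjusted p under 0.05. Without centring no region was called, with 2861 higher and 294 lower at an unadjusted p under 0.05; without WT replicate 1 or 2 the numbers were 652 higher and 364 lower, and 1162 and 1235, so the count rests on the libraries used. The excess of higher regions was not kept without WT replicate 2, nor in 4 other alternatives: the numbers were 16 higher and 32 lower without Bcat replicate 1, 17 and 26 without Bcat replicate 2, 10 and 15 with the replicate block, and 6 and 6 with quantile normalization.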

How the data were processed

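For each ATAC-seq library the authors deposited MACS2 2.1.1.20160309 peaks, called in that library alone on deduplicated Bowtie2 2.3.2 alignments to mm10, with the fold enrichment (a ratio to local background) and the -log10 p and -log10 q of each summit. For each RNA-seq library the authors deposited Salmon 0.10.2 estimated counts and TPM per transcript. Authors' DiffBind, HOMER and EBSeq analyses were not repeated. Here, regions, places (GENCODE M21), nearest genes and motif letters were computed with Python 3.11.15, pandas 2.3.3, numpy 2.4.6, scipy 1.17.1 and pysam 0.24.0. RNA counts (23300085 to 31604109 per anterior pituitary GFP-positive library) were summed to genes, rounded and tested with edgeR 4.0.16 (TMM, filterByExpr, quasi-likelihood, 12 GFP-positive libraries of 6 groups in 1 fit), and fold enrichments of persistent regions with limma 3.58.1. The scripts were tested on simulated data. Named are the 10 strongest gained and lost regions, the 10 and 5 genes with most of them, up to 4 genes per list, and the 10 largest and 5 smallest RNA changes among called genes with a region. Members and lists were chosen with earlier results of these data known. Alternatives included DESeq2 1.42.0, other thresholds, overlaps and windows, and leaving out each library. Labels do not say whether replicates came from separate cohorts, so p-values measure the spread between these pools.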

Additional observations from a re-analysis of the deposited data

Results flagged for a closer look

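Among genes called in RNA with a gained or lost region nearby, 10 had a response to stabilization that differed between the anterior and the posterior lobe (edgeR interaction term, Benjamini-Hochberg adjusted p under 0.05 over all genes, 2 libraries a group). The log2 response in the anterior minus that in the posterior lobe was 12.01 for Cd36 (adjusted p = 0.0134), 9.64 for Bche (0.0277), 8.34 for Vcam1 (0.00186), 8.19 for Car4 (0.00186), 7.75 for Myof (0.0121), 7.28 for Crybg1 (0.0238), 6.59 for Fbln2 (0.0119), 5.07 for Cachd1 (0.00571) and 4.76 for Vwf (0.0121). Where WT anterior libraries are at or near 0, as for Cd36, Bche, Myof, Vcam1 and Car4, the size of this difference depends on the prior count and is no bound. In the posterior lobe, Cd36 had a log2 fold change of -0.05 and Car4 of 1.16, neither past the test, while Vcam1 rose by 2.52 (adjusted p = 0.00993) and Myof by 5.72 (adjusted p = 6.8e-05). For Slc2a1 the response was larger in the posterior lobe: the difference was -3.91 (adjusted p = 0.00492), from a log2 fold change of 1.88 in the anterior and 5.78 in the posterior lobe. These 10 genes come from those called in the anterior lobe, which favours larger anterior responses, and over all 17900 genes tested the difference was past the threshold for 13 genes with the larger log2 response in the anterior and 10 in the posterior lobe. Without Bcat anterior replicate 2, the library whose labels disagree (an alternative chosen after seeing the data), the 10 differences kept their direction, with adjusted p from 5.31e-13 to 0.00052, and the lone library left was assumed to vary like the others.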

How the results depend on the processing

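The direction of the TCF/LEF difference between gained and lost regions held in each alternative that recomputed both shares, and RNA counts with RLE normalization were equal to those reported. When more than 4 in fold enrichment and more than 3 in -log10 q were required, the promoter, TCF/LEF and WT cerebellum shares of gained regions were 10.5%, 20.1% and 24.1%, the promoter share of lost regions was 9.76% and their number 676; with a fold enrichment over 3 the promoter share of lost regions was 9.6%. With 20000 peaks per library, 763 gained regions had shares of 20.2%, 19.7% and 51.5%, and 548 lost regions a promoter share of 16.2% and a WT cerebellum share of 21.5%. Without chromosomes X and Y and multicopy regions, the promoter and WT cerebellum shares of lost regions were 13.1% and 5.09%. With promoters of 500 bp the promoter shares of gained and lost regions were 6.9% and 8.33%, and with 2500 bp 14.7% and 16.3%. TCF/LEF shares were 12.6% and 1.39% in windows of 50 bp to either side of the summit and 33.5% and 10.4% over whole regions. The cause of these shifts was not tested.

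When 1 library was left out in turn, gained regions numbered 3382 to 6027, with promoter shares of 9.26% to 11.9%, TCF/LEF shares of 14.7% to 19.7% and WT cerebellum shares of 13.3% to 19.9%. Lost regions numbered 2430 to 7751, with 10.2% to 14.7%, 3.83% to 4.94% and 5.88% to 14.9%. The WT cerebellum share was higher at gained than at lost regions in these alternatives except without Bcat replicate 1, where it was 13.3% against 14.9%. In RNA, 91 to 216 genes were higher and 5 to 39 lower, 49 to 109 genes with gained regions were higher and 0 to 2 with lost regions lower, and the median log2 fold changes were 0.22 to 0.40 for gained and 0 to 0.10 for lost regions; the lone library of a group was then assumed to vary like the others. In persistent regions, 16 to 1162 were higher and 26 to 1235 lower.

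In RNA, DESeq2 called 414 genes higher and 80 lower. Of the higher genes 147 had gained regions, and of the lower genes 4 had lost regions. Without the filter on low counts the numbers were 347, 96, 151 and 6, and with only the 4 anterior pituitary libraries 52, 30, 24 and 1, where 17 of the 24 were among the 43 reported. Quantile normalization gave 6 persistent regions higher, and no centring 0 higher and 0 lower. The replicate numbers did not pair the samples: deviations of same-numbered libraries correlated at -0.00983 in RNA and 0.0859 in fold enrichment. With the replicate block, 107 genes were higher and 10 lower in RNA, and 10 persistent regions were higher and 15 lower. Of these higher genes 59 had gained regions, and of the lower genes 0 had lost regions. No paired analysis was possible for gained and lost regions because they come from presence and not from a test. Read depth per peak is unknown from these lists, so that absence of a peak is not absence of accessible DNA.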

Other observations

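Flvcr2, Slc52a3 and Ptn, which the lists did not hold, had gained regions and rose in RNA, and they were named here after their values were seen. Flvcr2, the choline transporter of the BBB, was at 1.05 and 2.83 TPM in Bcat and 0 TPM in both WT replicates, with 1 gained region (edgeR, adjusted p = 0.00597). Slc52a3, a riboflavin transporter gene, was at 1.32 and 4.05 TPM against 0 TPM in both WT replicates, with 2 gained regions (adjusted p = 0.0158). Ptn, which codes for the growth factor pleiotrophin, was at 45.1 and 46.7 TPM against 3.88 and 1.26 TPM, with 2 gained regions (log2 fold change 3.73 ± 0.66 SE, adjusted p = 0.0285).

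Around the loci of the alleles used, within 100 kb of Ctnnb1, the gene that carries the BcatEx3fl allele, 3 of 17 regions were gained and 1 was lost, with 11 of 96 gained and 2 lost within 1000000 bp and 29 of 403 gained and 10 lost within 10000000 bp, beside shares of 5.13% gained and 3.47% lost over all regions. Within 100 kb of Pdgfb, whose regulatory sequences drive the Cre, 2 of 28 regions were gained and 1 lost, and within 100 kb of Tek, also called Tie2, whose sequences drive the GFP, 2 of 24 were gained and none lost. Within 10000000 bp of Pdgfb 35 of 757 regions were gained and 18 lost, and of Tek 27 of 347 and 9.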
